A study of Mus musculus with 8 samples.

Results

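The insulin-like growth factor (IGF) system of the dental papilla cells was described by 10 transcripts, chosen by name out of the 22609 gene symbols counted: the ligands Igf1 and Igf2, the receptors Igf1r and Igf2r, and the IGF binding proteins Igfbp2 to Igfbp7. Total RNA was sequenced from immortalized mouse dental papilla cell lines, iBmp2 fx/fx cells, in which both Bmp2 alleles are floxed, and iBmp2 ko/ko cells, in which Bmp2 is knocked out. The labels give 1 library per genotype at 6, 24, 48 and 72 h of culture, so 4 libraries per genotype and 8 in all. Each genotype is 1 cell line, and a difference of genotype cannot be told apart from any other difference between these lines. The culture times took the place of replicates, no label names separate cultures, and the p-values measure only the spread between these libraries. The study's methods list the times 6, 48 and 72 h, which gave 3 libraries per genotype for the tests, and the design text has 8 h in place of 6 h. The lines are called fx/fx and ko/ko below, and the library labelled ko/ko at 24 h is given apart or identified by its time.

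IGF1 and IGF2 are secreted growth factors that signal through the IGF1 receptor, a tyrosine kinase, to the PI3K, AKT and mTOR pathway. The IGF2 receptor, which is also the cation-independent mannose 6-phosphate receptor, takes up IGF2 and delivers it to lysosomes. The binding proteins hold the ligands in the medium and matrix and release them, in part when proteases cleave them. In the tooth, IGF ligands act on the growth and differentiation of papilla cells and odontoblasts.

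The reads assigned to genes numbered 25890110 to 32415665 a library. Bmp2, the targeted gene, was read once, at 24 h in fx/fx, and not at all in the remaining 7 libraries (a floor of 3 counts is 0.0925 to 0.116 CPM, read counts scaled to the size of the library), so the genotypes could not be checked by it. Of 14 markers of dental papilla mesenchyme, 12 passed the filter on low counts, and Barx1 and Lhx8 had at most 1 read per library. The 14 summed to 7378 to 8738 CPM in the fx/fx libraries, 9635 to 13208 CPM in the ko/ko libraries of 6, 48 and 72 h and 8111 CPM in that of 24 h. The dentin gene Dspp had at most 1 read per library. The summed level of 6 odontoblast markers was 14.5 to 67.7 CPM in the fx/fx libraries, 1.78 to 3.25 in the ko/ko libraries of 6, 48 and 72 h and 15.05 in the library labelled ko/ko at 24 h. Most of the highest sum was Alpl, the alkaline phosphatase of mineralizing cells, at up to 63.6 CPM, with a log2 fold change of -5.61 and an edgeR adjusted p of 0.0153. Of the others, Dspp and Dmp1 were not tested, and Sp7 (-4.12), Bglap (-1.13) and Phex (0.46) were not called without the block. Of 4 leukocyte markers, Ptprc and Itgam had at most 3 reads in any library, and the 4 summed to 4.41 to 14.3 CPM in the fx/fx libraries, 2.85 to 3.46 in the ko/ko libraries of 6, 48 and 72 h and 6.04 in that of 24 h. The sum of 4 neuron and glia markers, mostly Tubb3, was 20.8 to 44.39 CPM in the fx/fx libraries, 44.41 to 59.8 CPM in the ko/ko libraries of 6, 48 and 72 h and 20.2 CPM in that of 24 h. The sums for dental epithelium, endothelium and muscle overlapped between the genotypes. The part of such cells or of the state of differentiation in the results below was not tested. Of 291 genes called between the genotypes, 3 (1.03%) lay nearer to the ko/ko mean than to the fx/fx mean in the library labelled ko/ko at 24 h.

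Over the libraries of 6, 48 and 72 h, Igf1 was the member that differed most clearly between the genotypes. Its level in CPM (scaled by the TMM method) was 3.15, 3.11, 2.11 and 1.65 in the fx/fx cells at 6, 24, 48 and 72 h. In the ko/ko cells it was 21.5, 28.7 and 12.4 at 6, 48 and 72 h, and it was 2.82 in the library labelled ko/ko at 24 h. The 3 ko/ko libraries of 6, 48 and 72 h all lay above every fx/fx library, while the library of 24 h lay within the fx/fx range. The mean was 2.30 ± 0.769 CPM (SD, n = 3) in the fx/fx cells and 20.9 ± 8.21 (SD, n = 3) in the ko/ko cells. By edgeR's quasi-likelihood test over these 6 libraries, Igf1 was 9.14-fold higher in the ko/ko cells, with a log2 fold change of 3.19 (SE 0.42) and a Benjamini-Hochberg adjusted p of 0.0165. This made Igf1 the only member of the 9 tested that was called at an adjusted p of at most 0.05, where 2.22% of the 13121 genes tested were called, 0.915% as higher and 1.3% as lower. In bulk RNA, more cells that transcribe a gene and more RNA per cell cannot be told apart.

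The call for Igf1 was lost when any of 3 libraries was left out, while the difference kept its direction and was 2.88 or more on the log2 scale. Without the ko/ko library of 6 h the log2 fold change was 3.17 (edgeR adjusted p 0.0572), without the fx/fx library of 48 h it was 3.12 (0.107) and without the ko/ko library of 48 h it was 2.88 (0.0831). Over all 8 libraries, edgeR gave a log2 fold change of 2.72 (SE 0.61) with an adjusted p of 0.483, and no gene was called there, although 1336 of 13053 genes (10.2%) had an unadjusted p under 0.05.

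Igf1 lies on chromosome 10 of mm9, from 87321010 to 87399792 on the plus strand, in 8 exon blocks. The noncoding Gm16176 overlaps it on the opposite strand without sharing exonic bases and had at most 2 reads in any library. The genes of chromosome 10 that were tested had a median log2 fold change of 0.30, against 0.03 over all genes tested. The genes whose profile over the 8 libraries was most like that of Igf1 were As3mt, Gbp4 and Xist, with root mean square differences of 0.268, 0.271 and 0.285 on the log2 scale, where the median over all genes tested was 1.52. In the fx/fx libraries they were low, at 0.186 to 0.405 (As3mt), 0.202 to 0.535 (Gbp4) and 0.156 to 0.286 CPM (Xist). They were at 1.36 CPM or more in the ko/ko libraries of 6, 48 and 72 h, through which alone they passed the filter on low counts.

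Igf2, the growth factor of fetal growth, had the opposite direction and was the more abundant ligand in the fx/fx cells. It stood at 17.2, 42.8, 45.9 and 30.3 CPM in the fx/fx cells at 6, 24, 48 and 72 h, and at 7.65, 16.3, 23.8 and 11.9 CPM in the ko/ko cells. At each of the 4 times the ko/ko library was the lower of the pair, 1.92-fold to 2.63-fold, although the ranges of the genotypes overlapped. A lower level at all 4 times was found for 15.5% of the genes tested, and among the members for Igf2, Igfbp4 and Igfbp7. The mean was 31.1 ± 14.4 CPM (SD, n = 3) in the fx/fx cells and 14.5 ± 8.39 (SD, n = 3) in the ko/ko cells over 6, 48 and 72 h. The edgeR test without a block did not call it, with a log2 fold change of -1.08 (SE 0.50) and an adjusted p of 0.399. Without the fx/fx library of 48 h it was -0.70, and without the ko/ko library of 48 h it was -1.66.

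At 6, 48 and 72 h, libraries that shared a culture time deviated in the same sense from their genotype means. Once culture time entered the model as a block, the log2 fold change of Igf2 was -1.13 (SE 0.14) with an edgeR adjusted p of 0.00193. The 24 h libraries did not deviate together (correlation across genes -0.291), which limits a block over all 8 libraries. In that fit Igf2 was the only member called, at a log2 fold change of -1.19 (SE 0.12) and an adjusted p of 0.0427, where 0.306% of genes were called (0.23% lower). In this fit Igf1 had a log2 fold change of 2.44 (SE 0.63) with an adjusted p of 0.107.

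**Figure D1:**
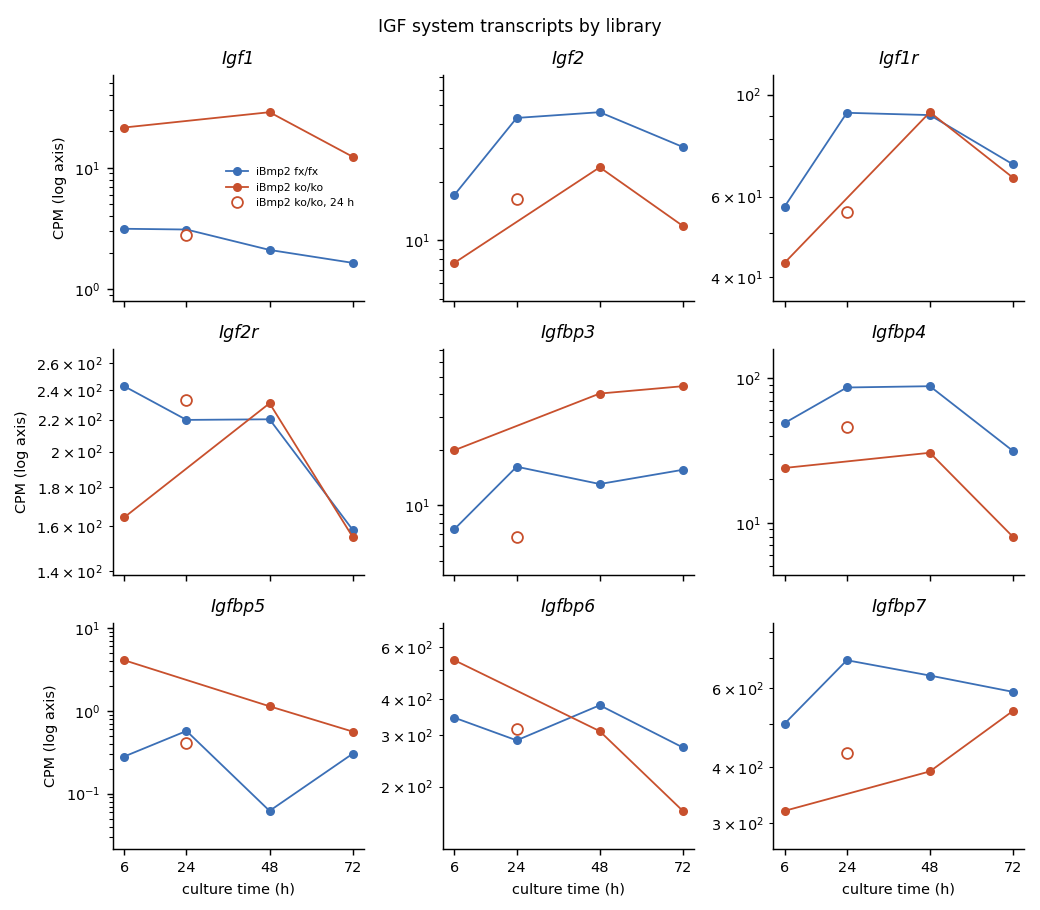
Level of 9 IGF system transcripts in CPM (log axis) against culture time in h, 1 point per library, with fx/fx in blue, ko/ko in red and the library labelled ko/ko at 24 h as an open circle. Igf1 is higher in the 3 filled red points than in any blue point, Igf2 is lower in red at each time, and the open circle of Igf1 lies among the blue points at 2.82 CPM.

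Levels of different genes were compared per length, as CPM per kilobase of exon (RPKM). On this scale Igf1 made up 4.88 ± 3.77% (SD, n = 3) of the summed ligand level in the fx/fx cells and 45.8 ± 13.1% (SD, n = 3) in the ko/ko cells of 6, 48 and 72 h. Its share was 2.48 to 9.23% in the 4 fx/fx libraries, 36.6 to 60.9% in the 3 ko/ko libraries and 8.75% in the library labelled ko/ko at 24 h. The ligands together summed to 3.44 to 8.56 RPKM in the fx/fx libraries, to 3.41 to 7.24 RPKM in the ko/ko libraries of 6, 48 and 72 h, which overlapped, and to 3.25 RPKM in that of 24 h. In the ko/ko library of 6 h, Igf1 was the more abundant ligand per length, at 1.56 times the level of Igf2. The annotation used for the counting is not given in the sources used here, so these lengths may differ from those of the authors' gene models.

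Igf2 is on chromosome 7, from 149836673 to 149852721 on the minus strand, and the noncoding H19 lies 72624 bases away on the same strand. H19, which is imprinted together with Igf2, had 16 to 51 reads per library in the gene table, with 0.530 to 1.52 CPM in the fx/fx libraries, 0.712 to 1.93 CPM in the ko/ko libraries of 6, 48 and 72 h, which overlapped, and 0.593 CPM in that of 24 h. The antisense transcript Igf2as shares 1.78% of the exonic bases of Igf2, and it had 1 to 12 reads in the fx/fx and 0 to 3 reads in the ko/ko libraries. The strand setting of the counting is not given in the sources used here, so reads in the shared bases cannot be assigned to a strand.

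Neither receptor was called between the genotypes. Igf1r, the signalling receptor on chromosome 7 (75097713 to 75371484, plus strand), had 57.0, 91.3, 90.2 and 70.5 CPM in the fx/fx cells at 6, 24, 48 and 72 h. In the ko/ko cells it had 43.0, 55.5, 91.5 and 65.9 CPM, so that the ranges overlapped and the 48 h libraries were nearly equal. Its log2 fold change was -0.10 (SE 0.30), with an edgeR adjusted p of 0.925, and with the block it was -0.14 (SE 0.12), with an adjusted p of 0.421.

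Igf2r, the clearance receptor on chromosome 17 (12875272 to 12962530, minus strand), had 243, 220, 220 and 158 CPM in the fx/fx cells. It had 164, 233, 231 and 155 CPM in the ko/ko cells, where the 6 h library was the low member of its pair and the other pairs lay within 1.06-fold. The log2 fold change was -0.16 (SE 0.25) with an edgeR adjusted p of 0.849, and -0.16 (SE 0.14) with an adjusted p of 0.453 with the block. Airn, the noncoding RNA antisense to Igf2r, had 79 to 131 reads per library in the gene table and 103 to 197 in the lncRNA table. In the gene table it was at 2.71, 3.50, 4.06 and 3.94 CPM in the fx/fx and 3.11, 3.41, 3.17 and 3.17 CPM in the ko/ko libraries at 6, 24, 48 and 72 h. In the lncRNA table it was at 4.24, 5.35, 6.11 and 5.39 CPM in the fx/fx and 3.64, 4.08, 4.95 and 4.13 CPM in the ko/ko libraries, lower in ko/ko at all 4 times, whereas at 6 h the gene table had ko/ko higher. Igf1r made up 42.6 ± 8.31% (SD, n = 3) of the receptor RPKM in the fx/fx cells and 42.8 ± 6.31% (SD, n = 3) in the ko/ko cells. An unadjusted or adjusted p above its threshold does not show that the receptors were equal, and these SEs are the precision reached.

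The binding proteins that were called with the block pointed in both directions. Igfbp3, the main carrier of IGF in serum, had 7.42, 16.2, 13.1 and 15.6 CPM in the fx/fx cells at 6, 24, 48 and 72 h. It had 19.9, 40.4 and 44.3 CPM in the ko/ko cells at 6, 48 and 72 h, and 6.74 CPM in the library labelled ko/ko at 24 h. The 3 libraries lay above all 4 fx/fx libraries, and the library of 24 h lay below all 4. The log2 fold change was 1.55 (SE 0.39), or 2.94-fold, which met the study's limit (more than 1 log2 unit in either direction, unadjusted p below 0.05) but had an edgeR adjusted p of 0.117. With the block it was 1.54 (SE 0.13) with an adjusted p of 0.00047, and with the block over all 8 libraries 0.93 (SE 0.50) with an adjusted p of 0.291.

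Igfbp4, a binding protein that mostly holds IGF back from its receptor, was lower in the ko/ko cells. Its level was 48.9, 86.2, 87.9 and 31.4 CPM in the fx/fx cells at 6, 24, 48 and 72 h and 23.9, 46.0, 30.5 and 7.98 CPM in the ko/ko cells. Without the 24 h libraries the genotypes did not overlap, although the fx/fx library of 72 h and the ko/ko library of 48 h were close. The pairs differed by 2.04-fold, 1.88-fold, 2.89-fold and 3.93-fold in the order of the times. The log2 fold change was -1.41 (SE 0.55), which met the study's limit, with an edgeR adjusted p of 0.317. With the block it was -1.48 (SE 0.18) with an adjusted p of 0.00182, and over all 8 libraries with the block it was -1.33 (SE 0.18) with an adjusted p of 0.0562.

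Igfbp5, a binding protein deposited in bone matrix, was near the limit of detection in the fx/fx libraries and the ko/ko libraries of 24 and 72 h. The filter on low counts was passed only through the ko/ko libraries. It had 9, 16, 2 and 9 reads in the fx/fx cells at 6, 24, 48 and 72 h and 123, 11, 35 and 14 reads in the ko/ko cells. The ratio of the libraries was 14.5 at 6 h (95% exact interval of counting error 7.40 to 32.5) and 18.3 at 48 h (4.69 to 157). It was 0.714 at 24 h (0.299 to 1.64) and 1.85 at 72 h (0.747 to 4.85), intervals that contain 1. The fitted log2 fold change of 3.17 (SE 0.89) had an edgeR adjusted p of 0.163, and with the block it was 2.98 (SE 0.59) with an adjusted p of 0.0118. Without the ko/ko library of 6 h the difference was 2.00, and limma on log2 RPKM gave 1.40.

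Igfbp7, a binding protein of low affinity for IGF, was the most abundant member per length in the fx/fx cells. It had 501, 694, 641 and 590 CPM in the fx/fx cells and 320, 431, 392 and 535 CPM in the ko/ko cells at 6, 24, 48 and 72 h. The ko/ko library was lower at each time, by 1.56-fold, 1.61-fold and 1.64-fold at 6, 24 and 48 h and by 1.10-fold at 72 h, and the genotypes overlapped through the ko/ko library of 72 h. The log2 fold change was -0.46 (SE 0.24) with an edgeR adjusted p of 0.459, and -0.48 (SE 0.14) with an adjusted p of 0.0438 with the block. The exons of Igfbp7 share 7.01% of their bases with Polr2b on the opposite strand.

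Igfbp6, which binds IGF2 in preference to IGF1, had 344, 288, 380 and 272 CPM in the fx/fx cells at 6, 24, 48 and 72 h. It had 542, 315, 310 and 165 CPM in the ko/ko cells, where the 6 h library was the highest and the 72 h library the lowest of all 8. The log2 fold change was 0.05 (SE 0.41) with an edgeR adjusted p of 0.978, and with the block it was -0.11 (SE 0.23) with an adjusted p of 0.769. Igfbp2 had 1 to 3 reads in the fx/fx libraries and 0 or 1 in the ko/ko libraries, at or under the floor of 3 counts, and was not tested.

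**Figure D2:**
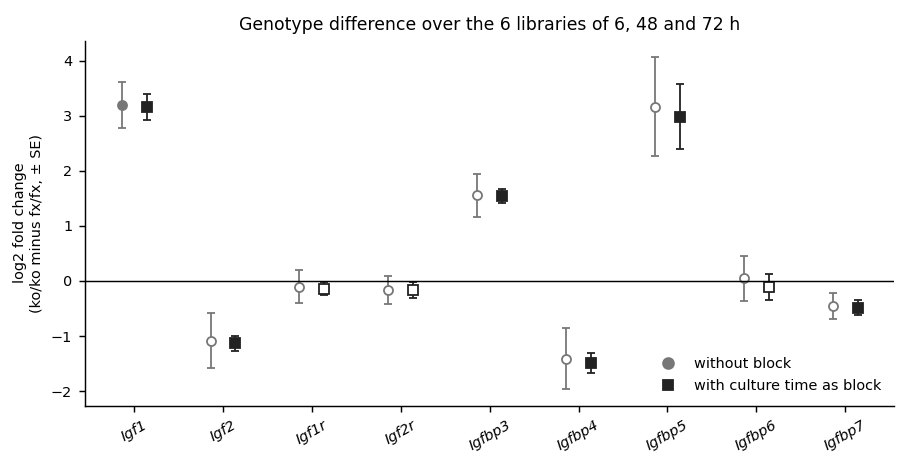
Log2 fold change (ko/ko minus fx/fx) with its SE for 9 members over the 6 libraries of 6, 48 and 72 h, without a block (circles) and blocked by culture time (squares), filled where the adjusted p was at most 0.05. Igf1 at 3.19 is filled in both fits, and Igf2, Igfbp3, Igfbp4, Igfbp5 and Igfbp7 only with the block.

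Without a block, 4 members met the study's limit, Igf1, Igfbp3 and Igfbp5 as higher and Igfbp4 as lower, where 7.35% of genes did (3.31% higher, 4.04% lower). The same 4 members did not overlap between the 3 and 3 libraries, as did 20% of genes (9.04% higher, 11% lower). With the block, Igf1, Igfbp3 and Igfbp5 were called as higher and Igf2, Igfbp4 and Igfbp7 as lower, where 22.7% of genes were called (11.3% higher, 11.4% lower). Because Igfbp5 passed the filter through the genotype in which it was high, it adds nothing to these counts. In both fits the ligands pointed in opposite directions, and so did Igfbp3 and Igfbp4.

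The promoter sequences of Igf1, Igfbp3, Igfbp4 and Igfbp5 are shown because these were the members whose 3 libraries per genotype did not overlap. Each is the RefSeq stretch from 250 bases before to 50 bases after a transcript start (GRCm38.p6), and all 14 promoters of the members matched mm9 exactly once. They lie in mm9 at chr10:87323606-87323905 (plus strand) for Igf1, chr11:7113877-7114176 (minus) for Igfbp3, chr11:98902308-98902607 (plus) for Igfbp4 and chr1:72921390-72921689 (minus) for Igfbp5. The Igf1 start of RefSeq lies inside the longer gene model of GENCODE M1. Capitals mark matches on either strand of GGCGCC and CAGAC, letters bound by SMAD proteins of the BMP and TGF-beta pathways, of the GC box GGGCGG and of the TATA box TATAAA.
Igf1: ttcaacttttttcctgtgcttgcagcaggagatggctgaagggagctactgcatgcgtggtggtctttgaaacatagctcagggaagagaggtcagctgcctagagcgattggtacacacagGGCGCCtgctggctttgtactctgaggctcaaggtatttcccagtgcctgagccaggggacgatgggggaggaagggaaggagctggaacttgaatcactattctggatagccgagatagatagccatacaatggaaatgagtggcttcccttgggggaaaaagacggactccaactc
Igfbp3: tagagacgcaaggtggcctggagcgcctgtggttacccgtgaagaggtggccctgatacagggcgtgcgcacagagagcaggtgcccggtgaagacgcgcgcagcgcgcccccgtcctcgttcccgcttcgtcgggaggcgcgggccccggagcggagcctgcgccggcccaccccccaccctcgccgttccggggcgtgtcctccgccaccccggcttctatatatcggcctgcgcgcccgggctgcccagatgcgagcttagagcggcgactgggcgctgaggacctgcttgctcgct
Igfbp4: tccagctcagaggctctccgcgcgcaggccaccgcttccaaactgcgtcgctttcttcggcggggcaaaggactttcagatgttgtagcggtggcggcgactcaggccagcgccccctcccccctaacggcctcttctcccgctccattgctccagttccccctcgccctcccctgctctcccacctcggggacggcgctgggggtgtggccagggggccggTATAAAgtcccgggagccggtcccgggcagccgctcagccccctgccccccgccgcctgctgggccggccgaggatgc
Igfbp5: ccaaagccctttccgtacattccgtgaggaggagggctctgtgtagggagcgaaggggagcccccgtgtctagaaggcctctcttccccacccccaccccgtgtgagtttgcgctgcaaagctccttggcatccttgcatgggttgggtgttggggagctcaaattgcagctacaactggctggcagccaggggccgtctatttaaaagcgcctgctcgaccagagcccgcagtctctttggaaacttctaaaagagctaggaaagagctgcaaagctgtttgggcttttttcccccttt
The Igf1 promoter held GGCGCC, 128 bases before the start, as did 11.9% of 32851 promoters of this length, and it was the only member promoter that did. The Igfbp4 promoter held TATAAA, 28 bases before the start, as did 13.6% of promoters. CAGAC was in 49.6% and GGGCGG in 35.7% of promoters and in none of the 4 shown. The GC content was 52.3% for Igf1, 56.3% for Igfbp5, 71.7% for Igfbp3 and 71.3% for Igfbp4, against a median of 52.7% over all promoters. These matches are descriptions of the letters in this window.

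Igfbp2 and Igfbp5 are neighbours. Igfbp5 (chromosome 1, 72904506 to 72921458, minus strand) ends 5457 bases from the end of Igfbp2 (72871077 to 72899048, plus strand), and Igfbp3 (chromosome 11, 7106089 to 7113926, minus strand) lies 3539 bases from Igfbp1, which had at most 1 read. Igfbp2 had at most 3 reads in the libraries in which Igfbp5 had up to 123. Igfbp4 is on chromosome 11 (98902558 to 98913969, plus strand), Igfbp6 on chromosome 15 (101974793 to 101979942, plus strand) and Igfbp7 on chromosome 5 (77778265 to 77837070, minus strand).

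Per length, Igfbp6 and Igfbp7 made up 95.2 to 97.8% of the summed RPKM of Igfbp2 to Igfbp7 in every library. In the fx/fx cells the order of the median levels was Igfbp7 (507 RPKM), Igfbp6 (284), Igfbp4 (28.6), Igf2r (23.3), Igf1r (18.0), Igf2 (6.66), Igfbp3 (4.58), Igf1 (0.263), Igfbp5 (0.0486) and Igfbp2 (0.0188). The ranges over the 4 libraries overlapped between Igfbp4 and Igf2r, Igf2r and Igf1r, Igf2 and Igfbp3, and Igfbp5 and Igfbp2, and not between the other neighbours.

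In the ko/ko cells of 6, 48 and 72 h the order was Igfbp7 (323 RPKM), Igfbp6 (278), Igf2r (17.4), Igf1r (14.7), Igfbp3 (12.9), Igfbp4 (10.1), Igf1 (2.17), Igf2 (2.16), Igfbp5 (0.189) and Igfbp2 (0). There the ranges of Igfbp7 and Igfbp6, of the run from Igf2r to Igfbp4 and of Igf1 and Igf2 overlapped with their neighbours. Igfbp3 thus stood below Igfbp4 in the fx/fx cells without overlap, at 2.37 to 5.18 against 13.3 to 37.2 RPKM, and in the ko/ko cells their ranges overlapped, at 6.36 to 14.2 against 3.38 to 12.9 RPKM.

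**Figure D3:**
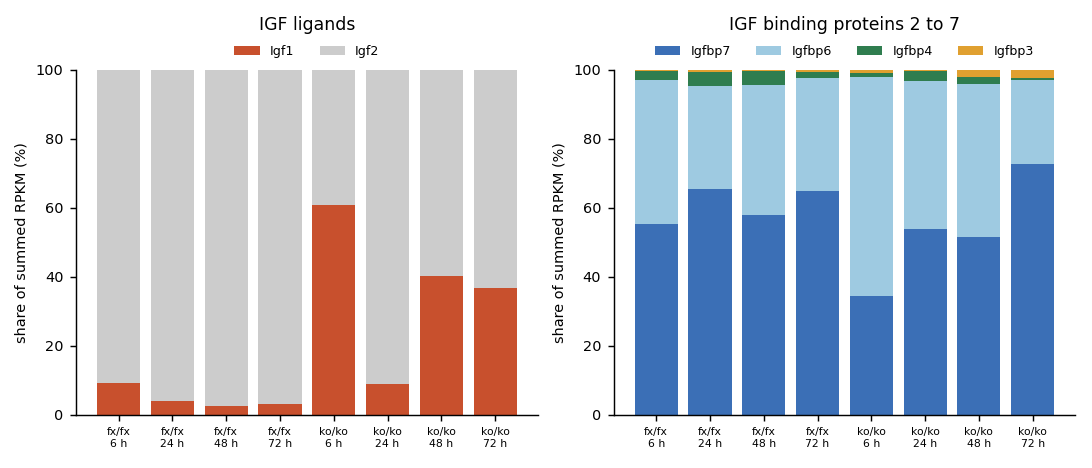
Share of the summed RPKM in % for the ligands (left) and for the binding proteins (right) in each of the 8 libraries, stacked by gene. Igf1 takes 36.6 to 60.9% of the ligand level in the ko/ko libraries of 6, 48 and 72 h and at most 9.23% elsewhere, and Igfbp6 and Igfbp7 fill 95.2 to 97.8% of the binding protein level in every library.

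The balance of Igfbp7 to Igfbp6 varied more among the ko/ko than among the fx/fx libraries, a difference that was not tested. The ratio of their RPKM was 0.541, 1.25, 1.16 and 2.97 in the order of the culture times for ko/ko. In the fx/fx cells it was 1.33, 2.21, 1.55 and 1.98 at these times, with no steady order. The share of Igfbp7 was 52.8 ± 19.2% (SD, n = 3) in the ko/ko and 59.4 ± 4.91% (SD, n = 3) in the fx/fx cells.

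Culture time was tested as a slope per doubling of time, with genotype in the model, over 7 libraries without the one labelled ko/ko at 24 h. No gene was called by edgeR at an adjusted p of at most 0.05 (0 of 13208), while 3441 genes (26.1%) had an unadjusted p under 0.05, 14.7% rising and 11.4% falling, and DESeq2 called 1693 (12.8%). Among the members, 5 had an unadjusted p under 0.05, with positive slopes for Igf2, Igf1r and Igfbp3 and negative slopes for Igfbp5 and Igfbp6. The smallest p was that of Igfbp3, whose slope was 0.31 (SE 0.07) on the log2 scale, with an edgeR unadjusted p of 0.00254 and an adjusted p of 0.110, and DESeq2 gave it an adjusted p of 0.00213. Igfbp3 stood 2.10 times as high at 72 h as at 6 h in the fx/fx cells and 2.23 times as high in the ko/ko cells.

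The slope of Igf2 was 0.32 (SE 0.13) with an edgeR adjusted p of 0.180, that of Igf1r 0.19 (SE 0.08) with 0.183, and that of Igfbp6 -0.22 (SE 0.09) with 0.191. Without the ko/ko library of 6 h the slope of Igf1r was 0.094 and that of Igfbp6 -0.081. Igf1 had a slope of -0.15 (SE 0.11) with an adjusted p of 0.398, and its level in the fx/fx cells went down at each time, to 1.65 CPM at 72 h. For Igfbp6 the slope was -0.04 (SE 0.11) in the fx/fx and -0.39 (SE 0.11) in the ko/ko cells. The edgeR test of this difference of -0.35 (SE 0.16) gave an unadjusted p of 0.0635 and an adjusted p of 1, and without the ko/ko library of 6 h the difference was -1.43. No member and no other gene was called for a difference in slope between the genotypes, where 133 genes (1.01%) had an unadjusted p under 0.05 and DESeq2 called 1 (0.00757%).

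**Figure D4:**
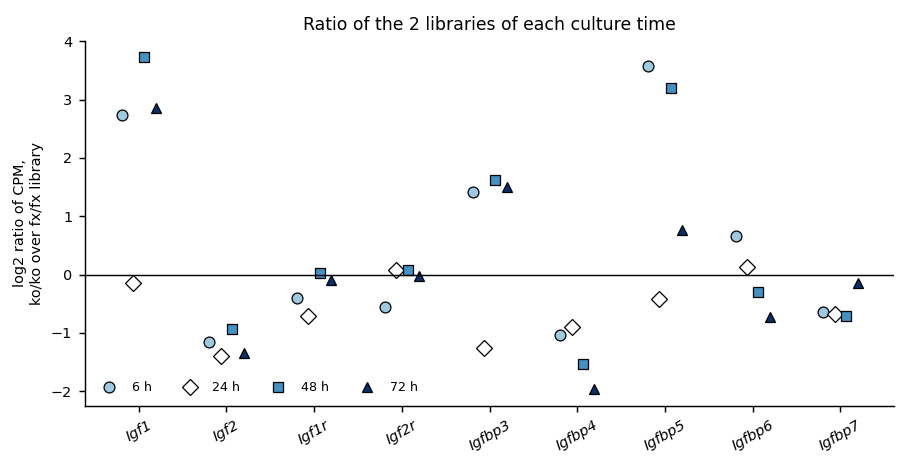
Log2 ratio of the CPM of the ko/ko over the fx/fx library at each culture time (marker shape), with 24 h as open diamonds and a prior count of 2. Igf2, Igfbp4 and Igfbp7 lie below 0 at all 4 times, and Igf1, Igfbp3 and Igfbp5 lie above 0 at 6, 48 and 72 h but below 0 at 24 h.

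The library labelled ko/ko at 24 h divided the members. Igf1 at 2.82 CPM, Igfbp4 at 46.0, Igfbp5 at 0.408 and Igf2r at 233 lay within the range of the 4 fx/fx libraries, Igfbp5 through the fx/fx library of 24 h (0.571 CPM). Igf2 at 16.3 CPM, Igf1r at 55.5 and Igfbp7 at 431 lay within the ko/ko range and outside the fx/fx range. Igfbp3 at 6.74 CPM lay below every other library, and Igfbp6 at 315 lay within both ranges. Of the 6 members called with the block, Igf2 and Igfbp7 were nearer to the ko/ko mean in this library and Igf1, Igfbp3, Igfbp4 and Igfbp5 nearer to the fx/fx mean. Of the 2981 genes called with the block, 18.4% were nearer to the ko/ko mean, 15.6% of those lower and 21.2% of those higher in the ko/ko cells. At 24 h the members that differed by 2-fold or more were Igf2 and Igfbp3, both lower in the library labelled ko/ko, where 6.19% of genes differed by as much.

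Of 41 other genes of the IGF and insulin pathway, 34 passed the filter on low counts, and 1 was called without a block as higher and 0 as lower, where 2.22% of all genes tested were called (0.915% higher, 1.3% lower). This was Igf2bp1, an RNA-binding protein of Igf2 mRNA, which stood at 5.56 ± 1.10 CPM (SD, n = 3) in the fx/fx and 21.0 ± 9.58 CPM (SD, n = 3) in the ko/ko cells, and at 7.11 CPM in the library labelled ko/ko at 24 h. Its log2 fold change was 1.93 (SE 0.37), with an edgeR adjusted p of 0.0493, and of the 6 fits that each left out 1 library it was called only without the ko/ko library of 72 h. The median log2 fold change of the 34 genes was -0.14, against 0.03 over all genes tested. Ins1, Ins2 and Igfbpl1 had 0 reads in all 8 libraries and Igfals had at most 13, so the transcripts of insulin and of the acid-labile subunit were at or near the floor. The insulin receptor Insr was at 26.6 ± 6.83 CPM (SD, n = 3) and 27.0 ± 10.2 CPM (SD, n = 3), with an edgeR adjusted p of 0.975.

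With the block, 11 of the 34 genes were called, 5 as higher and 6 as lower, where 22.7% of all genes were called (11.3% higher, 11.4% lower). Among the higher was Grb10, which had 2, 1 and 5 reads in the fx/fx and 11, 10 and 13 in the ko/ko libraries of 6, 48 and 72 h, passed the filter only through ko/ko and adds nothing to the count. Of 6 receptor adaptors and docking proteins tested, Irs1, Grb14 and Grb10 were called as higher and Shc1 as lower, while Irs2 (log2 fold change -0.34) and Grb2 (-0.17) were not called. Irs1 was at 47.6 to 67.3 CPM in the 3 fx/fx and 79.0 to 153 CPM in the 3 ko/ko libraries and at 50.1 CPM in that labelled ko/ko at 24 h, with a log2 fold change of 0.89 (SE 0.13, edgeR adjusted p 0.0034). Grb14, an inhibitory adaptor, went from 1.47 ± 0.692 to 9.63 ± 6.53 CPM (SD, n = 3 each) and stood at 0.741 CPM in the ko/ko library of 24 h, with a log2 fold change of 2.65 (SE 0.25, edgeR adjusted p 0.000603). Of 19 genes from PI3K to mTOR, 0 were higher and 4 were lower, namely Pik3ca, Pik3r1, Gsk3b and Foxo1, beside the 11.3% and 11.4% of all genes. Foxo1, a transcription factor that AKT keeps out of the nucleus, had a log2 fold change of -0.90 (SE 0.12, edgeR adjusted p 0.00236), with 34.0 to 51.5 CPM in the fx/fx and 17.4 to 29.2 CPM in the ko/ko libraries of these times and 36.1 CPM in the ko/ko library of 24 h. Of 5 tested proteases and inhibitors that act on binding proteins, Stc2, an inhibitor of the proteases that cleave them, was called as higher. At 24 h, however, Stc2 was at 3.45 CPM in the library labelled ko/ko against 16.99 CPM in fx/fx. The protease Htra1 was called as lower, and at 24 h it was at 164 CPM in the library labelled ko/ko against 148 CPM in fx/fx. The proteases Pappa2 (log2 fold change 0.81) and Pappa (-0.52) and the inhibitor Stc1 (-0.81) were not called. The genes called with the block are named after their values were seen, and none of the 34 was called with the block over all 8 libraries.

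**Figure D5:**
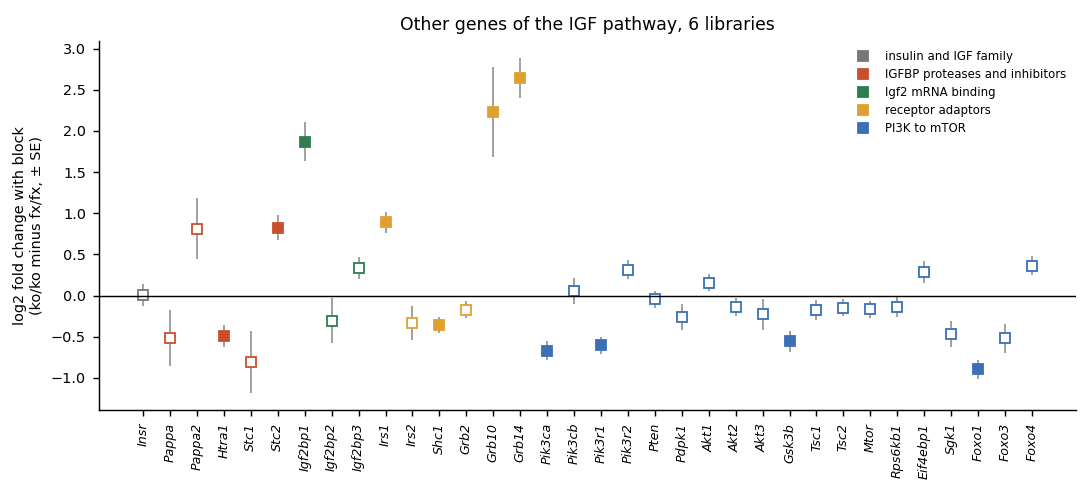
Log2 fold change (ko/ko minus fx/fx) with its SE from the blocked fit of 6 libraries, for the 34 tested genes of the pathway list, coloured by role and filled where the adjusted p was at most 0.05. Filled points are 5 above 0 and 6 below 0, and the 4 filled points from PI3K to mTOR all lie below 0.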

How the data were processed

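Total RNA of 8 libraries, 1 per genotype and culture time, was sequenced with a 50 base single-end protocol per the labels, while the study's methods speak of paired reads. The authors used CASAVA 1.8.2, TopHat2 2.0.8b and HTSeq on mm9 and deposited whole-number read counts per gene symbol and per lncRNA symbol, without normalization. The annotation and strand setting of the counting are not given in the sources used here. HTSeq's summary rows, 52.0 to 59.0% of each gene table, were left out. Alignments that were not unique made up 41.3 to 49.6% of each gene table, so genes with near copies are undercounted. This is a share of alignments, and the share of reads is not given.

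Counts were tested in R 4.3.3 with edgeR 4.0.16 (TMM, filterByExpr, at least 10 counts and 15 in total, quasi-likelihood test) and Benjamini-Hochberg adjustment over all genes tested, without a block. The 24 h libraries stayed out of the genotype test, and the library labelled ko/ko at 24 h out of the time tests. Over the 6 libraries, deviations from the genotype means correlated by 0.713, 0.536 and 0.840 between libraries of the same time and by -0.695 to 0.168 between others, so the culture times pair these libraries. Over all 8 libraries the 24 h pair correlated by -0.291 and fx/fx at 24 h with ko/ko at 48 h by 0.434, so a block over 8 libraries does not rest on such a pairing. That pairing comes from the labels' culture times, and the blocked values are given where they change a call. SE is the log2 fold change divided by the square root of F. RPKM used exon lengths of GENCODE M1 on mm9, matched for 95.7% of symbols. Ratios of single libraries used a prior count of 2 where given as log2.

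The members, the pathway list and the marker lists were chosen with earlier results of these data known. The named genes are the members, Bmp2, noncoding RNAs at the members' loci, pathway genes called without the block, the first 6 others of the pathway list, and the 3 genes nearest in profile to a called member. Outside this rule, the pathway genes called only with the block, the adaptors Irs2 and Grb2, and Pappa, Pappa2 and Stc1 were named after their values were seen. Polr2b was named for its overlap with a member, and single genes of the marker lists to describe the cells. Alternatives were 7 or 8 libraries, the block, DESeq2 1.42.0, limma 3.58.1 on log2 RPKM with an offset of 0.1, RLE or no scaling, no filter, 10 counts in every library, time in hours, other lengths and leaving out each library. The tests were first tried on simulated counts. Intervals and floors cover counting error only. Summaries used pandas 2.3.3 and numpy 2.4.6 in Python 3.11.15, and figures matplotlib 3.10.9.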

Additional observations from a re-analysis of the deposited data

How the results depend on the processing

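Without a block 291 genes differed between the genotypes, 1 member (Igf1) and 1 other pathway gene among them. All 8 libraries gave 0 genes, 0 members and 0 pathway genes, and 463 in place of 964 genes at the study's limit. The 7 libraries gave 483 genes and 3 pathway genes. The culture time as replicate block gave 2981 genes, 6 members and 11 pathway genes over 6 libraries, and 40 genes, 1 member and 0 pathway genes over 8. DESeq2 gave 873 genes, 3 members (Igf1, Igfbp3 and Igfbp5) and 4 pathway genes. At least 10 counts in every library gave 145 genes. That filter, limma on log2 RPKM and scaling to the library total only each called 0 pathway genes. Leaving out each library in turn gave 9 to 383 genes, 0 to 1 members and 0 to 1 pathway genes. The 9 genes were left without the ko/ko library of 48 h, and 14 without the fx/fx library of 48 h. For culture time, where 0 genes and 0 members were called, all 8 libraries gave 1 gene, no filter 16, and DESeq2 1693 genes and 1 member (Igfbp3). Leaving out each library gave 0 to 1069 genes and 0 to 1 members, the highest without the ko/ko library of 48 h. For the interaction DESeq2 gave 1 gene. The log2 fold change of Igfbp6 reversed to -0.11 with the replicate block over 6 libraries, -0.036 over 8 and -0.11 by limma. When each library was left out it ran from -0.46 to 0.35, that of Igf1r from -0.40 to 0.15, Igf2 from -1.66 to -0.70, Igfbp4 from -1.81 to -0.94, Igfbp5 from 2.00 to 3.58 and Igfbp7 from -0.70 (without the ko/ko library of 72 h) to -0.28 (without that of 6 h). Igfbp4 was lowest in size without the fx/fx library of 48 h. Limma gave 1.40 for Igfbp5, and the replicate block over 8 libraries 2.03. The time slopes of Igf2r ran from -0.16 to 0.010, of Igfbp4 from -0.27 to 0.055, of Igf1 from -0.30 to -0.083, of Igf1r from 0.094 to 0.25, of Igfbp5 from -0.74 to -0.20 and of Igfbp6 from -0.35 to -0.081. For Igf1r, Igfbp5 and Igfbp6 the value nearest to 0 was that without the ko/ko library of 6 h. The differences in slope ran from -1.76 to 0.51 for Igf1, -1.94 to 0.61 for Igf2, -0.85 to 0.46 for Igf1r, -0.77 to 0.32 for Igf2r, -3.23 to 0.62 for Igfbp4, -1.504 to 0.072 for Igfbp5 and -1.43 to -0.21 for Igfbp6. For each of these members the lowest value was from the fit without the ko/ko library of 6 h. There the ko/ko slope rested on the libraries of 48 and 72 h alone. The share of Igf1 in the ligands of the ko/ko cells was 59.8% in counts in place of 45.8% per length, and in the fx/fx cells 8.36% in place of 4.88%, a setting added after seeing the data. The cause of these shifts was not tested, and depth limits Igfbp2, Igfbp5 and Igf2as, which had few reads. Over 6 libraries the replicate block changed the calls of Igf2, Igfbp3, Igfbp4, Igfbp5 and Igfbp7 and no other member's call. Over 8 libraries it changed those of Igf1, which was lost, and of Igf2, which was gained.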
